A study of Arabidopsis thaliana with 5 samples.

Results

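The peaks described here are sites in the Arabidopsis genome with a called peak of AtSMOS1-GFP and no called peak of SCL28-GFP, and they lie far upstream of a gene. A site was counted when it was a peak of the list labelled SNOS1-GFP rep1 on chromosomes 1 to 5, shared at least 1 bp with a peak of SNOS1-GFP rep2, shared none with a peak of either E1M-GFP list, and had a protein-coding gene as its nearest gene with the summit, the position of highest enrichment, more than 500 bp upstream of the transcription start site (TSS). Of the 5438 rep1 peaks, 749 met this rule, which is 13.8%. The whole series holds 18951 peaks on these chromosomes in its 5 lists. The 749 peaks have 653 different nearest genes.

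ChIP-Seq was performed by the authors with an anti-GFP antibody on whole seedlings of the Col-0 background. The AtSMOS1-GFP line (SNOS1-GFP in the labels) carries AtSMOS1 with GFP under the AtSMOS1 promoter, with 2 replicates. The SCL28-GFP line (E1M-GFP in the labels) has 2 replicates and is given in the study both as driven by the RPS5A promoter and as driven by the SCL28 promoter, and the input is total chromatin of WT seedlings with 1 sample. The study calls the 2 replicates of each line biological. Whether a line comes from 1 insertion is not given in the sources used here, and a whole-seedling sample mixes many cell types.

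AtSMOS1 is a transcription factor of the AP2 type, and SCL28 is a GRAS protein made around mitosis with which AtSMOS1 forms a heterodimer that acts on SIM/SMR genes, which encode inhibitors of cyclin-dependent kinases. In ChIP-Seq, proteins are crosslinked to DNA, the chromatin is broken and precipitated, and a peak is a place where the precipitated fragments pile up. Arabidopsis has short intergenic regions, so most DNA near a gene that binds transcription factors lies close to its TSS, while genes with large upstream regions are often regulators and genes that respond to hormones, light or stress.

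The lists have 1 peculiarity of naming. The 6934 peaks of the list labelled SNOS1-GFP rep2 carry names made for the other protein, as do the 396 peaks of the list labelled E1M-GFP rep2. The labels were followed. Of the peaks labelled SNOS1-GFP rep2, 61.1% overlapped a peak of SNOS1-GFP rep1 and 4.53% a peak of E1M-GFP rep1. Of those labelled E1M-GFP rep2, 90.9% overlapped a peak of E1M-GFP rep1 and 62.6% a peak of SNOS1-GFP rep1. The AtSMOS1-GFP lists, with 5438 and 6934 peaks, are much longer than the SCL28-GFP lists with 488 and 396, so that a site without an SCL28-GFP peak is a site at which none was called. The lists hold no read counts, so the number of reads behind a peak is unknown.

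The DNA at the summits is shown first for the 5 members with the word CACGTG, the G-box bound by bHLH and bZIP factors, that had the highest enrichment in the lower of the 2 replicates. Each window is 200 bp of the forward strand of TAIR10 around the rep1 summit, from RefSeq's copy of the assembly. Capitals mark CACGTG, the auxin response element TGTCTC and the word GGNCCAC, which is close to the sites of TCP factors, on either strand.
AT5G60840, chr5:24476752-24476951: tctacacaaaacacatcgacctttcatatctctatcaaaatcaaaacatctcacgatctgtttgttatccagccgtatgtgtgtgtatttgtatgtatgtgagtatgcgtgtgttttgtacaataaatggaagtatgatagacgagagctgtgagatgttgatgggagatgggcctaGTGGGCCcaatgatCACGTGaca
AT4G16770, chr4:9441955-9442154: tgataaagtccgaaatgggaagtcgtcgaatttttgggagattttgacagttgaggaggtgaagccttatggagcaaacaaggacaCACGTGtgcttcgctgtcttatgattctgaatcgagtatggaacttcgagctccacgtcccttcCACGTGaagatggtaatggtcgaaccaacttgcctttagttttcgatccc
AT5G67411, chr5:26901092-26901291: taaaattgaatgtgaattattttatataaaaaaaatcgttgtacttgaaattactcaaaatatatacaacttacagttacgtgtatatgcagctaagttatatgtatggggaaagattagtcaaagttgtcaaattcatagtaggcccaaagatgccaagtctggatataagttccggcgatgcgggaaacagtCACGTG
WES1, chr4:13652353-13652552: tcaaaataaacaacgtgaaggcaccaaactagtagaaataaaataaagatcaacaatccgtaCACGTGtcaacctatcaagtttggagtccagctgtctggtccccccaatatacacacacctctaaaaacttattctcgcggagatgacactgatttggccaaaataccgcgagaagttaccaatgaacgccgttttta
AT4G39040, chr4:18191036-18191235: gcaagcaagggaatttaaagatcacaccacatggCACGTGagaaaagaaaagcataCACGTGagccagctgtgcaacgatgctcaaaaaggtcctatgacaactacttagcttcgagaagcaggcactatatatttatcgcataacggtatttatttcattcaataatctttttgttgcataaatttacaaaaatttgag

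All 5 windows lie between genes. The members upstream of AT4G16770 and AT4G39040 hold CACGTG in 2 places each. The window of AT5G60840 has GTGGGCC beside CACGTG close to its right end.

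The next windows are those of 2 members with CACGTG among the 4 members upstream of ATHB2 (AT4G16780), a homeodomain-leucine zipper factor of the shade response. They are shown because this gene has one of the largest groups of members.
ATHB2 at 4874 bp, chr4:9444140-9444339: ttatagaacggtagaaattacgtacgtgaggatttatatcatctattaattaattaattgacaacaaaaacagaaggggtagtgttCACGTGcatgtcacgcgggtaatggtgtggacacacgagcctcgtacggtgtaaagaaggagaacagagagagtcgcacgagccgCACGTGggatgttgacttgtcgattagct
ATHB2 at 5642 bp, chr4:9443372-9443571: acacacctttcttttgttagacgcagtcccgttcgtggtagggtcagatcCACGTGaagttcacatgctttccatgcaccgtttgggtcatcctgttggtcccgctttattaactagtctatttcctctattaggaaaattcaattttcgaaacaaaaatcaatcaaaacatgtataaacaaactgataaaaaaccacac

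The 2 members with GGNCCAC but not CACGTG that had the highest enrichment are upstream of EXL3 (AT5G51550), an EXORDIUM-like gene, and of AT4G10970. This word was chosen after the data were seen.
EXL3, chr5:20943103-20943302: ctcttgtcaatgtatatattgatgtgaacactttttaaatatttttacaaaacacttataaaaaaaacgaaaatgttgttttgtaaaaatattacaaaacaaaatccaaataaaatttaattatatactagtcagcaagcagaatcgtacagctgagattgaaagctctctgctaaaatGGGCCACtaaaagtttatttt
AT4G10970, chr4:6723121-6723320: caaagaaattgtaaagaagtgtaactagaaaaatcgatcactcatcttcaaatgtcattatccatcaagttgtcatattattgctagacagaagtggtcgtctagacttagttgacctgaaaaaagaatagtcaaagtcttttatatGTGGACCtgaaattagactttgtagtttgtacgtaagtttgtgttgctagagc

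For contrast, 2 windows are given of far upstream AtSMOS1 peaks that do overlap an SCL28-GFP peak. Capitals mark the match to the SCL28-AtSMOS1 motif, the 12 bp motif that the study describes for peaks common to both proteins.
AT5G48790, chr5:19782498-19782557: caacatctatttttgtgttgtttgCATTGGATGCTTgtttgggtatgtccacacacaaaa
AT5G28300, chr5:10297016-10297075: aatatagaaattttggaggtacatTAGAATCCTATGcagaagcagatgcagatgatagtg

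The SCL28-AtSMOS1 motif was found in none of the 749 members. It was looked for without mismatches, on both strands, within the 200 bp at each summit, and 0 of 749 allows a share of up to 0.401% by the limit of 3 counts (exact 95% interval 0% to 0.491%). Among the far upstream AtSMOS1 peaks that overlapped an SCL28-GFP peak, 14 of 66 held it, which is 21.2% (exact 95% interval 12.1% to 33.0%). The difference passed the two-sided Fisher's exact test (p = 1.32e-16, adjusted p = 5.29e-16 over 4 tests). Among AtSMOS1-only peaks within 500 bp upstream of a TSS, 1 of 899 held it, or 0.111% (interval 0.00282% to 0.618%), and the share of the members did not differ from this beyond counting error (two-sided Fisher's exact test, adjusted p = 1). Over all rep1 summits the share was 1.05%. With 1 mismatch allowed, 28 members (3.74%) had a match, against 32 proximal AtSMOS1-only peaks (3.56%) and 25 of the 66 shared far upstream peaks (37.9%). The study found the motif in common peaks, and the rule leaves such peaks out, so the contrast with shared peaks is not independent of how the motif was found. Intervals and limits of this kind cover counting error only.

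Peaks of the input were nearly absent from the members. A peak of the WT input overlapped 2 of the 749 members, or 0.267% (exact 95% interval 0.0324% to 0.961%), against 5 of 899 proximal AtSMOS1-only peaks (0.556%, interval 0.181% to 1.29%) and 1 of 66 shared far upstream peaks (1.52%, interval 0.0384% to 8.16%). Neither comparison passed the two-sided Fisher's exact test (adjusted p = 0.621 and 0.448), with odds ratios of 0.479 (95% interval 0.0455 to 2.94) and 0.175 (0.00899 to 10.4). The share over all rep1 peaks was 0.497%. The 2 members lie upstream of AT5G52280, which encodes a myosin heavy chain-related protein, and of AT5G19130. The study's notes give the input as the control of the peak caller, so these lists were made against the same library.

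The distance to the TSS ran from 501 bp to 7181 bp, with a median of 1124 bp and quartiles of 781 and 1791 bp. Since the rule sets the lower end, these are a description. Of the members, 436 (58.2%) were more than 1 kb upstream, 156 (20.8%) more than 2 kb and 12 (1.60%) more than 5 kb. The members just inside the limit were upstream of AGD8 (501 bp, fold enrichments of 3.80 and 3.16 in rep1 and rep2) and of RD21B (505 bp, 3.38 and 3.59). The peaks just outside it were upstream of EXP3, an expansin gene (500 bp, 2.79 and 3.11), and of XYL4, a xylosidase gene (498 bp, 4.45 and 4.798).

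**Figure D1:**
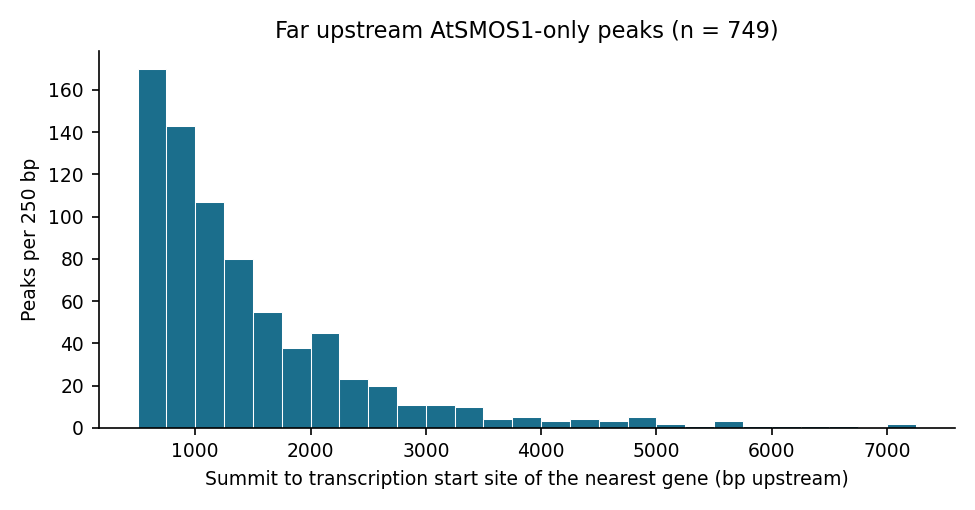
Distance of the summit to the TSS of the nearest gene for the 749 far upstream AtSMOS1-only peaks. The x axis gives bp upstream of the TSS in steps of 250 bp and the y axis the number of peaks in each step. The numbers fall off from the limit of 500 bp, the median is 1124 bp, and 12 peaks are beyond 5 kb.

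The region between the 2 flanking genes had a median length of 4158 bp, with a range of 1041 to 27019 bp, of which the rule sets the lower end. At 444 members (59.3%) the gene on the other side was transcribed away from the peak too, so that the peak lay between 2 gene starts, and at 305 members (40.7%) it was transcribed towards it. Of the 444, 394 had a protein-coding gene on the other side and 144 were within 2000 bp of that gene's start, so the nearest gene is not the only candidate neighbour. One summit lay in an annotated pseudogene. The chromosomes held between 121 members (chromosome 4) and 203 (chromosome 1), or 5.97 (chromosome 5) to 6.67 (chromosome 1) per Mb. An SCL28-GFP peak lay within 1 kb of 22 members without overlapping them.

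The fold enrichment of the members, the ratio at the summit over the background that the caller estimated, was modest. In rep1 it ran from 2.00 to 9.66 with a median of 3.80, and in rep2 from 1.897 to 9.20 with a median of 3.77. The members were selected on being called in both lists, so these values describe them and were not tested. Both replicates were at 5 or above in 51 members, both were at 4 or above in 197, and both were below 3 in 41. Rep1 was the higher in 389 members and rep2 in 360. Across members the replicates were related with a Pearson's r of 0.60 on log2 values and a Spearman's rho of 0.56. The peaks share libraries and are not replicates of each other.

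**Figure D2:**
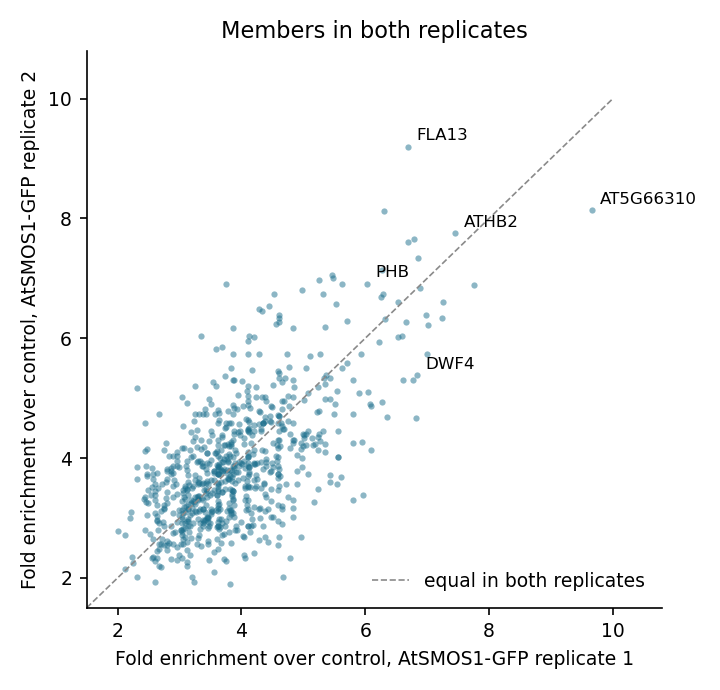
Fold enrichment of each of the 749 members in AtSMOS1-GFP replicate 1 (x axis) and in the overlapping peak of replicate 2 (y axis), both linear ratios over the caller's control. Points are peaks and the dashed line marks equal values. Most members lie between 2 and 6 in both replicates, and the member upstream of AT5G66310 is highest in replicate 1 with 9.66.

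The 2 summits of a member lay a median of 49 bp apart, and 383 members (51.1%) had them within 50 bp, while the largest distance was 593 bp. A rep2 peak can span several rep1 peaks, and 36 members shared their rep2 peak with another member. The −log10 q of the caller had a median of 4.70 in rep1 and 8.25 in rep2, and 308 members were at 5 or above in both. Enrichment did not vary with distance in a way visible in the medians, which in rep1 were 3.80 at 500 to 1000 bp, 3.85 at 1000 to 2000 bp, 3.74 at 2000 to 3000 bp and 3.58 beyond 3000 bp. Proximal AtSMOS1-only peaks had medians of 3.79 in rep1 and 3.60 in rep2, and shared far upstream peaks had 4.25 and 4.37.

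The member with the highest enrichment in the lower replicate was 667 bp upstream of AT5G66310, which encodes a kinesin-type microtubule motor (chr5:26492164-26492569). It had fold enrichments of 9.66 in rep1 and 8.14 in rep2. The member 1730 bp upstream of ATHB2 followed with 7.46 and 7.75 (chr4:9447218-9447645).

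The other 13 of the 15 highest members include several with a known role in growth or signalling. The member at EBF2, an F-box gene whose product removes the ethylene factors EIN3 and EIL1, lay 956 bp upstream with 6.85 and 7.34. The member at EXL3 lay 2308 bp upstream with 6.78 and 7.66. The member at FLA13, which encodes a fasciclin-like arabinogalactan protein of the cell surface, lay 545 bp upstream with 6.69 and 9.20, the highest rep2 value of all members. The transporter and trafficking genes PUP18, a purine permease gene, and VPS24.1, which encodes an ESCRT subunit, had members at 598 and 899 bp, with 6.88 and 6.84 at PUP18 and 7.75 and 6.89 at VPS24.1.

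Transcription factor genes in this group were AT5G67411, of the GRAS family to which SCL28 belongs (1456 bp, 7.23 and 6.34), and AT5G51790, of the bHLH family (1272 bp, 6.33 and 6.32). The member assigned to AT4G16770, an oxygenase gene, lay 4849 bp upstream with 6.98 and 6.39, in the same intergenic region as those of ATHB2. BRG1, a RING-type gene, had a member at 2807 bp with 6.31 and 8.12. The remaining 4 were at AT5G60840, AT3G46700, a glycosyltransferase gene, AT4G10970 and AT4G19530, a disease resistance gene, and their lower values lay between 6.28 and 6.69. At AT4G19530 the rep2 summit lay 562 bp from the rep1 summit, so its rep2 value may belong to a neighbouring site, and an SCL28-GFP peak lies within 1 kb.

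The 5 members farthest from a TSS belonged to 4 genes. Those upstream of NCED3, which encodes the dioxygenase that limits abscisic acid synthesis, lay at 7181 bp (5.80 and 3.30) and 6423 bp (4.59 and 5.45). The member of AT1G43910 lay at 7082 bp (4.37 and 3.58), that of CLE4, a peptide hormone gene, at 6716 bp (3.95 and 3.63), and that of XTH27 at 6043 bp (3.89 and 3.58). The gene on the other side lay at 7814 bp or more in each case, and it is farther away by the rule, which takes the nearest gene.

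Some genes had several members. Of the 653 genes, 573 had 1 member, 68 had 2 and 12 had 3 or more. STP1, which encodes a monosaccharide transporter of the plasma membrane, had 5 members, at 1430, 2169, 2733, 3034 and 3360 bp upstream. Their rep1 values were 3.85, 4.49, 3.87, 5.08 and 2.32, and their rep2 values 3.39, 3.91, 3.73, 3.73 and 5.16. Those at 2733 and 3034 bp share 1 rep2 peak. The 5 summits span 1930 bp.

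Of the 4 members of ATHB2, those described here lay at 1730, 4874 and 5642 bp, with rep1 values of 7.46, 5.44 and 3.61 and rep2 values of 7.75, 5.34 and 2.85. With the member of AT4G16770, the 11907 bp between the 2 genes held 5 members. The window of the strongest, at 1730 bp, has none of the 3 words shown above, and those at 4874 and 5642 bp and that of AT4G16770 have CACGTG. HAT1, a close relative of ATHB2, had 2 members, at 1394 bp (5.25 and 4.14) and 969 bp (6.09 and 4.14), over 1 rep2 peak.

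EDA12 (AT2G35950) had 4 members between 1463 and 5092 bp, in a region of 12300 bp that held 5, with rep1 values of 2.63 to 3.84 and rep2 values of 2.34 to 4.19. NCED3 had another member at 4909 bp (3.11 and 3.86). XTH27 and XTH24, which encode enzymes that cut and rejoin xyloglucan in the cell wall, had 3 members each, with rep1 values of 2.63 to 3.89 and 3.14 to 4.28. MYB70, a gene of the R2R3 MYB family, had 3 members at 585, 1710 and 3314 bp, with 5.43, 4.67 and 4.83 in rep1 and 4.99, 4.48 and 3.17 in rep2. TTL3, which encodes a tetratricopeptide protein that acts in brassinosteroid signalling, had 3, the highest at 1658 bp with 6.35 and 4.69. The other genes with 3 members were AT1G06148, AT3G30165, AT4G19700, a RING-type gene, and AT5G49390.

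**Figure D3:**
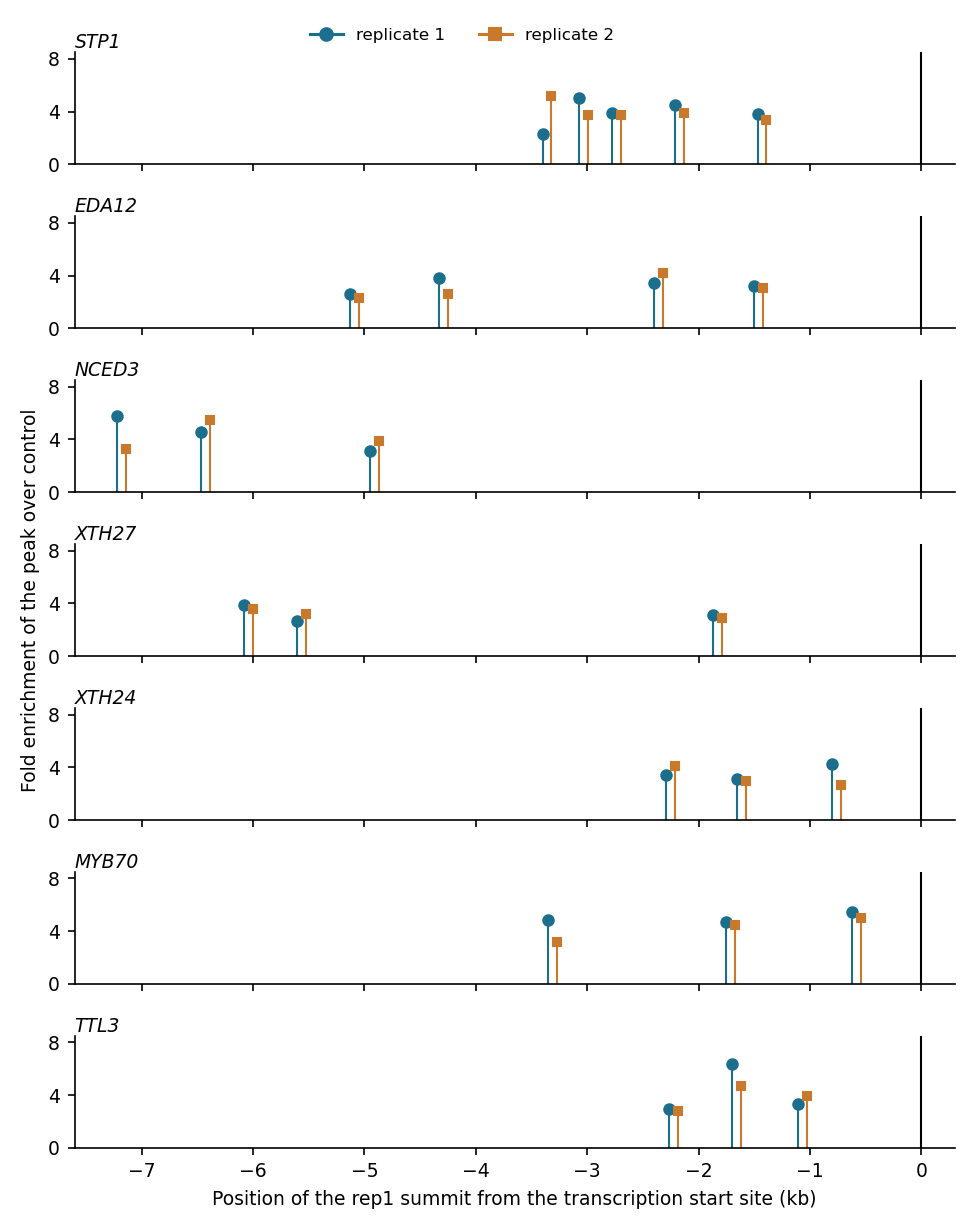
Members upstream of 7 of the 12 genes with 3 or more. The x axis gives the position of the rep1 summit relative to the TSS in kb (the vertical line at 0) and the y axis the fold enrichment of the peak over control, with circles for replicate 1 and squares for replicate 2, drawn side by side. The 5 members of STP1 lie within 1930 bp, while those of EDA12 are spread over several kb.

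Most of the genes had no other AtSMOS1 peak. Of the 653 genes, 398 (60.9%, exact 95% interval 57.1% to 64.7%) were the nearest gene of 1 member and of no other peak found in both replicates. An AtSMOS1-only peak within 500 bp upstream was found at 81 genes (12.4%), one inside the gene at 114 (17.5%), one downstream at 47 (7.20%) and a peak shared with SCL28-GFP at 16 (2.45%). In all, 219 genes (33.5%, interval 29.9% to 37.3%) had an AtSMOS1 peak of another kind. Over all 27444 protein-coding genes there were 899 AtSMOS1-only peaks within 500 bp upstream, 1270 inside genes and 737 downstream. The shares of all genes with such peaks are therefore lower than those of the genes with a member. These differences were not tested. No member was upstream of AtSMOS1 (AT2G41710) or SCL28 (AT1G63100).

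The summits were compared with their surroundings by searching 15 short motifs in the 200 bp at the summit and in the 200 bp centred 500 bp from it, on the side away from the nearest gene. Of the motifs, 9 (60%) were found in more summit windows than flank windows past an adjusted p of 0.05, and none in fewer (two-sided exact sign test over members with a match in 1 window only, Benjamini-Hochberg over the 15). Summit windows were richer in G and C, with a mean of 34.7% against 29.2% in the flank, and in 580 of 749 members the summit window had the higher share; the part of base composition in these differences was not tested. Members are separate sites of the same libraries, so the test covers sites and not replicate seedlings.

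The G-box CACGTG showed the largest difference of the 15 in percentage points (13.2), while the ratio of the shares was larger for GGNCCCAC. It was present in 120 summit windows (16.0%, exact 95% interval 13.5% to 18.8%) and in 21 flank windows (2.80%, 1.74% to 4.25%), with 116 members having it at the summit only and 17 in the flank only (adjusted p = 3.96e-18, exact sign test). Over all 200 bp windows of the 5 chromosomes its share was 2.197%. Other AtSMOS1 peaks held it at shares of the same order, 19.1% of proximal AtSMOS1-only summits, 16.7% of shared far upstream summits and 14.03% of all rep1 summits, and these differences were not tested. The share also varied little with distance, from 15.2% at 2000 to 3000 bp to 16.8% at 1000 to 2000 bp. Of the members, 30 had it in 2 or more places.

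TGACG, the core bound by TGA-type bZIP factors, was in 173 summit windows (23.1%) and 98 flank windows (13.1%; adjusted p = 6.09e-06, exact sign test), against 15.1% of all genome windows. TGTCTC was in 105 summit windows (14.02%) and 50 flank windows (6.68%; adjusted p = 2.9e-05, exact sign test), against 10.7% of genome windows, so its flanks lay below the genome as a whole. GGNCCCAC, a site of TCP factors, was in 27 summit windows (3.60%) and 2 flank windows (0.267%, adjusted p = 8.12e-06, exact sign test), against 0.452% of genome windows. Other AtSMOS1 peaks held these motifs too. TGACG was in 27.5% of proximal AtSMOS1-only summits, 16.7% of shared far upstream summits and 23.0% of all rep1 summits. For TGTCTC these shares were 13.0%, 15.2% and 14.3%, and for GGNCCCAC 3.56%, 3.03% and 3.18%. Differences between these kinds of peak were not tested.

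The other motifs past the threshold were TTGACC, the W-box core bound by WRKY factors (12.8% of summits and 8.14% of flanks), the AW-box, known as a site of the AP2-type factor WRINKLED1 (10.81% and 5.61%), the repeat GAGAGAGA (4.67% and 1.34%), the site II core TGGGCC (8.14% and 4.67%) and the GCC-box GCCGCC of ethylene response factors (2.00% and 0.401%). The AW-box was at 10.4% over all genome windows, and GCCGCC at 2.15%, so that at the summits both were near the level of the genome. Some of these calls were lost under an alternative. At a −log10 q of at least 5 in rep1, with 337 members, 5 motifs passed. The AW-box (4.15 percentage points, against 5.21 over all members) and the GAGA repeat (2.97 against 3.34) then differed about as much as before, and the W-box core (2.37 against 4.67) and site II (1.78 against 3.47) less. The GAGA repeat (2.29 points) and the W-box core (3.899) did not pass at a distance of more than 1000 bp, nor site II (3.45) and GCCGCC (1.45) when the replicate peaks had to overlap by 50% of both. GCCGCC also did not pass with either other placing of the flank (1.07 points with each).

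The motifs that did not pass were AACGG, the core of the MSA element bound by MYB3R factors at mitotic genes (14.95% of summits and 11.2% of flanks, adjusted p = 0.0537, exact sign test), the RY core CATGCA (15.2% and 11.9%), the I-box core GATAAG (11.1% and 10.55%), CAATNATTG, a homeodomain-leucine zipper site (1.34% and 0.935%), the telo-box AAACCCT (2.94% and 3.20%) and GGATNC, the core of the SCL28-AtSMOS1 motif (13.5% and 12.02%). Left-out lists changed some of these calls. AACGG passed without SNOS1-GFP replicate 1 (5.42 percentage points, adjusted p = 0.000512) and without E1M-GFP replicate 1 (3.93 points, adjusted p = 0.0375), CAATNATTG passed without SNOS1-GFP replicate 1 (0.994 points, adjusted p = 0.0363) and CATGCA without SNOS1-GFP replicate 2 (3.58 points, adjusted p = 0.0398), all by the same exact sign test. With the flank 1000 bp away from the gene, the difference for AACGG was 0.935 points (adjusted p = 0.766, exact sign test). AACGG was in 15.4% of all genome windows, so that at the summits it was near the level of the genome. It was in 21.2% of proximal AtSMOS1-only summits and 16.9% of all rep1 summits. GGATNC was in 19.3% of all genome windows, and in 50% of the shared far upstream summits.

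**Figure D4:**
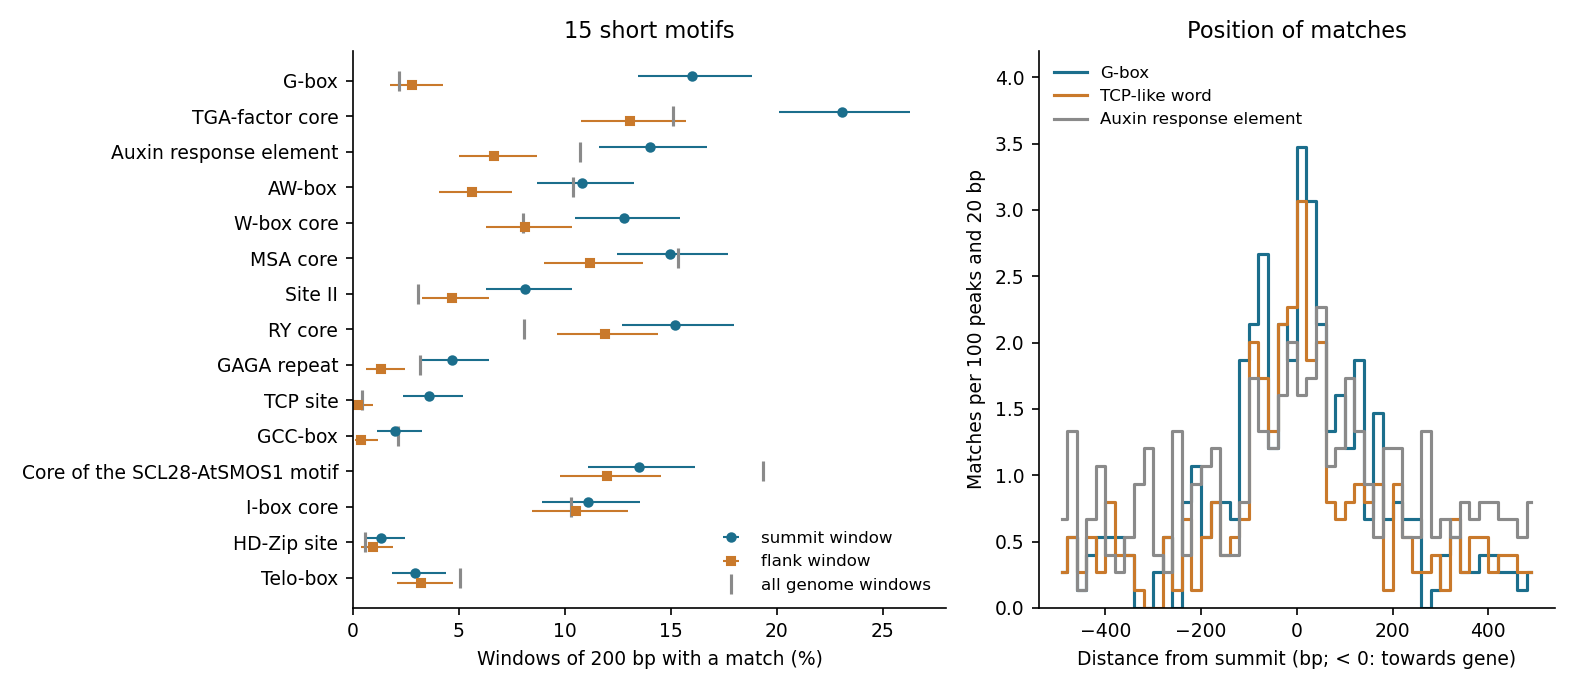
Short motifs at the members. Left, the percent of 200 bp windows with a match at the summit (circles) and in the flank (squares) for 749 members, with exact 95% intervals, and over all genome windows (grey bars); the G-box is at 16.0% and 2.80%. Right, matches per 100 peaks in steps of 20 bp against the distance from the summit in bp, negative towards the gene, where the TCP-like word is GGNCCAC; the G-box has 162 matches within 100 bp of the summit and 165 in the 100 to 500 bp on both sides together.

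Hexamers were ranked after the data were seen, by the number of members with the word at the summit minus that in the flank, with no test. CACGTG came first of all the words counted, with 120 and 21 members. GGACCA followed with 141 and 45, then ACACGT with 148 and 54, GAGAGA with 156 and 62, and AGAGAG with 149 and 57. GGTCCA, ranked sixth, had 140 and 51, and ACAGCT had 119 and 34. GTCCAC and GGACCC were also among the 20 highest, with 107 and 32 and with 86 and 19. GGACCA, the word ranked sixth and GTCCAC are parts of GGNCCAC, which was in 117 summit windows (15.6%) and 25 flank windows (3.34%), against 11.8% of proximal AtSMOS1-only summits, 15.2% of shared far upstream summits and 2.61% of genome windows. It occurred together with CACGTG in 23 members. At least 1 of these 2 words or the auxin response element was in 291 members (38.9%), so that 458 had none of the 3, and in 91 flank windows (12.1%).

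The genes were then read by function. Lists of genes of hormone pathways, development, light, the cell cycle and the cell wall were counted, which together hold 659 genes found in the annotation. The lists were written with earlier results of these data known, so a share above that of all genes may come from their choice. Since a member needs room, counts are given also for genes with more than 1000 bp to the next gene upstream. Of all 27444 protein-coding genes 2.38% are the nearest gene of a member, of the 16578 with more than 500 bp to the next gene 3.94% are, and of the 11923 with more than 1000 bp 5.48% are. No list was tested.

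Over all lists 8.04% of the genes had a member (11.3% of the 471 with room), and 8.04% had a proximal AtSMOS1-only peak. Cell wall genes had 13 of 90 genes with a member (14.4%, and 23.2% of the 56 with room), and 15.6% had a proximal peak. Of the 33 XTH genes, 7 had a member and together they had 12. XTH15 had members at 1730 bp (4.61 and 6.27) and 2621 bp, XTH28 at 2049 bp (4.61 and 6.38), XTH4 at 961 bp (4.35 and 4.59) and XTH30 at 1582 bp (4.12 and 3.85). Beside EXL3, EXL2 had 2 members, the higher at 1166 bp (4.11 and 5.20). Of 23 expansin genes 1 had a member (4.35%), EXPA8 (1760 bp, 3.29 and 4.19). CESA5, the only 1 of 10 cellulose synthase genes, had 2.80 and 3.65 at 758 bp.

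Genes of light signalling and the clock had 6 of 49 (12.2%, and 23.1% of the 26 with room), and as many had a proximal peak. Beside ATHB2 and HAT1, members were found at PHOT1, a blue light receptor gene (1532 bp, 4.77 and 5.51), at GI, a clock gene (774 bp, 4.11 and 4.49), at PIF1, a phytochrome-interacting bHLH gene (1565 bp, 3.397 and 3.47), and at CDF3 (1595 bp, 2.68 and 4.73). Genes of ethylene and jasmonate had 5 of 34 (14.7%, and 21.7% of the 23 with room), with a proximal peak at 4. EBF1, the paralogue of EBF2, had a member at 910 bp (4.48 and 4.86). The ethylene synthesis genes ACS6 and ACS8 had members at 1482 bp (4.90 and 3.57) and 581 bp (4.40 and 3.36), with a second one at ACS6, and JAZ5, a repressor of jasmonate responses, had one at 588 bp (2.96 and 2.94).

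Brassinosteroid genes had 3 of 28 (10.7%, and 13.6% of the 22 with room), which stand for synthesis, perception and signalling, while 17.9% had a proximal peak. The member 2257 bp upstream of DWF4, the gene of a hydroxylase that limits brassinosteroid synthesis, had 6.84 and 5.39, with an SCL28-GFP peak within 1 kb. That of BIN2, the GSK3-type kinase that represses the pathway, lay at 862 bp (5.97 and 3.39), and that of BRI1, the receptor, at 2712 bp (3.20 and 2.02), among the lowest rep2 values. WRKY genes had 7 of 71 (9.86%, and 12.5% of the 56 with room), with 11 members. WRKY49 (4.83 and 5.02), WRKY40 (4.90 and 4.05), WRKY11 (4.21 and 3.93), WRKY48 (3.87 and 5.31), WRKY47 (3.86 and 4.73) and WRKY18 (3.66 and 3.59) were highest.

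In the flowering list 3 of 40 genes had a member (7.50%, and 10.7% of the 28 with room), and all 3, AP2, TOE1 and SMZ, encode AP2-type factors themselves. Their members lay at 1774 bp (2.79 and 3.33), 3232 bp (3.67 and 2.99) and 1694 bp (4.06 and 2.33). In the cytokinin list 3 of 46 had one (6.52%, and 10% of those with room), all of them response regulator genes, namely ARR17 (635 bp, 3.91 and 3.77), ARR2 (1765 bp, 3.05 and 3.47) and ARR11 (1301 bp, 3.05 and 3.42). For abscisic acid 2 of 32 had one (6.25%, and 8.00% of those with room), NCED3 and the receptor gene PYL5 (577 bp, 5.02 and 4.38).

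The meristem and organ list had 6 of 94 (6.38%, and 7.69% of the 78 with room). PHB, a homeodomain-leucine zipper gene of adaxial identity, had one at 1046 bp (6.03 and 6.91), with an SCL28-GFP peak within 1 kb. Values were lower at TCP15 (2295 bp, 3.46 and 3.57), ANT, an AP2-type gene of organ growth (2874 bp, 4.06 and 3.30), TCP14 (647 bp, 3.11 and 3.47), GRF2 (616 bp, 3.68 and 2.91) and EPF1 (1028 bp, 2.58 and 2.65). The auxin list had 3 of 86 (3.49%, and 4.35% of the 69 with room), near the 5.48% of all genes with room. They were IAA3, also named SHY2, an Aux/IAA repressor gene (556 bp, 5.01 and 4.97), ARF3 (2436 bp, 4.59 and 3.47) and ARF6 (2136 bp, 2.96 and 4.03). WES1, a GH3 gene of auxin conjugation shown above, is outside the list. For gibberellin 1 of 24 had a member (4.17%, and 5% of those with room), GA2OX6 (1027 bp, 3.92 and 2.86).

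The cell cycle list had 1 of 66 genes (1.52%, and 2.56% of the 39 with room), which at this number of genes is not set apart from the 5.48% of all genes with room. The gene was SMR1, also named LGO, a cyclin-dependent kinase inhibitor gene of the SIM/SMR family, with a member at 1625 bp (chr3:3283672-3283780) of 3.36 in rep1 and 3.57 in rep2. Its summit window holds GGNCCAC in 1 place and no CACGTG. An SCL28-GFP peak lies within 1 kb of it without overlapping it. The list holds 11 genes of this family, not all of it. The 7 KRP, 25 cyclin and 5 CDK genes of the list had none, of which 6, 20 and 2 have room for one. The proximal AtSMOS1-only peaks gave 2 genes of this list (3.03%).

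**Figure D5:**
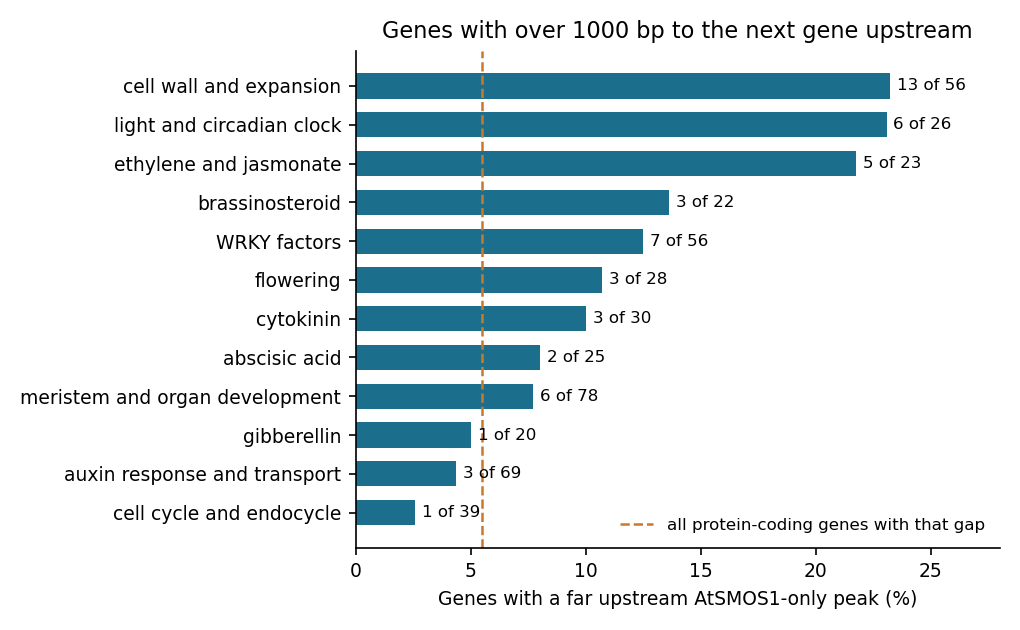
Percent of the genes of each list that are the nearest gene of a member, among genes with more than 1000 bp to the next gene upstream, with the counts beside each bar. The dashed line marks the 5.48% of all protein-coding genes with that room. The lists were written with earlier results of these data known and were not tested. Cell wall, light and ethylene and jasmonate genes lie between 21.7% and 23.2%, and cell cycle genes are at 2.56%, which is 1 gene.

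The genes were last set beside the lists of genes whose expression was called changed at an adjusted p below 0.05 in the atsmos1 and scl28 mutants and in SCL28OE plants, taken from the study's supplementary tables for membership and direction only. Of the 653 genes, 25 (3.83%) were higher in atsmos1, against 1.16% of all protein-coding genes, 1.501% of those with more than 1000 bp of room and 4.03% of the genes with a proximal AtSMOS1-only peak. Another 16 (2.45%) were lower in atsmos1, against 1.77%, 1.93% and 2.80% in the same 3 sets. For scl28, 42 genes (6.43%) were higher, against 1.70%, 2.298% and 6.05%, and 7 (1.07%) were lower, against 0.78%, 0.973% and 0.672%. For SCL28OE, 33 (5.05%) were higher, against 2.25%, 2.81% and 4.70%, and 41 (6.28%) were lower, against 1.63%, 2.17% and 6.27%. The share of genes with a member was above that of the genes with room in 5 of these lists under every alternative run, for lower in atsmos1 by little (2.15% at the least). In the list lower in scl28 it was near it and rests on 7 genes, with 0.6% when the replicate peaks had to overlap by 50% of both and 0% at a −log10 q of at least 5 in rep1. For each alternative, the share of the genes with room was kept as given above and not computed anew. The 81 genes that have both a member and a proximal AtSMOS1-only peak are in both of those sets, and no list was tested. The mutant lists come from RNA-Seq and the SCL28OE list from a microarray, so the lists are not alike in the genes they could cover. Per the paper's methods, the seedlings for expression were younger than those for ChIP-Seq. Genes that the expression assays could not measure are in the comparison sets.

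Genes higher in both mutants numbered 48. Of these, 4 had a member (8.33%, against 2.38% of all protein-coding genes and 5.48% of those with more than 1000 bp of room). They were BZO2H3, a bZIP gene (2165 bp, 5.08 and 4.45), RPT2, a gene of phototropism (821 bp, 3.78 and 3.94), AT3G59940, which encodes a kelch-repeat protein (936 bp, 3.63 and 2.98), and BT5, a gene of a BTB and TAZ domain protein (1473 bp, 2.70 and 2.18). Of the 57 genes lower in both mutants, 0 had a member. Both counts are small and were not tested, and how many of these genes have that room was not counted. SMR1 was among the 7 genes lower in scl28 and the 33 higher in SCL28OE, and in neither list of atsmos1, which does not show that its level was the same there. The highest members at genes higher in atsmos1 were those of AT5G44020, an acid phosphatase gene (521 bp, 6.27 and 7.14), IAA3, OFP15 (1230 bp, 6.82 and 4.67), BZO2H3 and ACR3 (1263 bp, 4.79 and 4.41). At genes lower in atsmos1 they were those of FUM2, a fumarase gene (1269 bp, 5.48 and 7.004), FAB1B (2134 bp, 4.83 and 4.25), AT2G28140 (781 bp, 4.10 and 4.45), WRKY40 (2992 bp, 4.90 and 4.05) and UGT76B1 (827 bp, 4.59 and 4.02).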

How the data were processed

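ChIP-Seq peaks of 5 samples were analyzed, as lists of peaks called by the authors per sample, without pooling. Per the submitters' processing notes, reads were trimmed with Trimmomatic 0.38, aligned to TAIR10 with Bowtie2 2.3.5 (the paper's methods name Bowtie), handled with SAMtools 1.9 and deepTools, and MACS2 2.2.7.1 gave the peaks, at a q value of 0.05. The sources differ in fragment size and in narrow or broad peaks, and the deposited lists have the narrow layout. The deposited fold enrichment is a ratio computed by the authors' caller over control, and the deposited −log10 p and −log10 q values are the caller's. The deposited score was not used. Peaks on organelle genomes were left out, and no depth could be computed, since the lists hold no counts. The study gives read totals for the ChIP libraries, which were not used here, with SCL28 rep2 as the deepest and AtSMOS1 rep1 as the shallowest.

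Membership, nearest genes and windows were computed in python 3.11.15 (numpy 2.4.6; scipy 1.17.1), and figures drawn in matplotlib 3.10.9. Genes were the 33056 genes other than 4843 pseudogenes on chromosomes 1 to 5 in the RefSeq annotation of TAIR10.1, whose chromosome sequences are those of TAIR10. A rep1 peak was paired with the overlapping rep2 peak of highest fold enrichment. Scripts were tested on simulated data. Shares were compared by two-sided Fisher's exact tests and windows by two-sided exact sign tests, with exact (Clopper-Pearson) 95% intervals and Benjamini-Hochberg adjustment at 0.05. Alternatives changed the replicate that gives the peaks, the replicate support, the excluding lists, the q value, the overlap, the distance, the summit, the gene set, the input peaks, the motif search and the flank.

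The members, the gene lists and the motifs were chosen with earlier results of these data known. Genes were named by rule: the 15 members with the highest lower fold enrichment of both replicates, the 5 farthest, those beside the limit, genes with 3 or more members, genes changed alike in both mutants or otherwise the 5 highest per direction in atsmos1, up to 6 per list, members at AtSMOS1 or SCL28, and the 5 highest members with a motif match. The last was meant for the SCL28-AtSMOS1 motif, which no member had, and was applied to CACGTG after the data were seen, as were the ATHB2 windows, GGNCCAC, the hexamers and the gap of 1000 bp upstream. Of the symbols in the gene lists, 20 were not matched to 1 gene and were left out. A member of ATHB2 is not reported here.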

Additional observations from a re-analysis of the deposited data

How the results depend on the processing

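The number of members was 723 with the roles of the AtSMOS1-GFP replicates swapped and 979 when only protein-coding genes could be nearest. It was 337 at a −log10 q of at least 5 in rep1 and 436 at a distance of more than 1000 bp, and lay between 753 and 1107 when 1 of the 4 lists was left out. At that q value 5 short motifs passed the threshold, 9.12% of the genes were lower in SCL28OE and 0% lower in scl28, and 19.8% had another AtSMOS1 peak. That last share was 25.4% with 50% reciprocal overlap, 40.2% at 1000 bp and between 33.2% and 40.7% without 1 of the 4 lists. The contrast of the SCL28-AtSMOS1 motif with shared peaks passed, and the other Fisher's exact tests did not pass, under every alternative run. No alternative makes that contrast independent of how the motif was found, which was in common peaks. The G-box, the auxin response element, the TGA-factor core and the TCP site passed under every alternative, with the G-box 11.6 to 14.9 percentage points above the flank. AACGG passed under 5 alternatives, CATGCA under 4 and CAATNATTG under 1. The causes of these changes were not tested. No paired analysis was possible because peaks are called per list, so that replicate numbers cannot enter a test as a block. The sign tests pair the windows of a site. With 2 replicates of each line and peak lists without counts, the spread between seedlings of any one site is not known.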
